A study of Strongylocentrotus purpuratus with 6 samples.

Results

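Ecr and Shr2 are the nuclear receptor genes among 37 developmental regulatory genes around which cis-regulatory modules (CRMs) had been selected, mainly by sequence conservation, as the stretches placed next to a reporter gene to measure enhancer activity. Their members here are Pol II peaks chosen by position only. For each gene a window was drawn from the smallest start to the largest end of its CRMs, with 2000 bp added on each side, and each peak that overlapped the window by at least 1 bp was taken. This gave 49 of the 554846 listed peaks, 6 at Ecr and 43 at Shr2, and 7 CRMs, 2 of Ecr and 5 of Shr2, beside 166 intronic, 133 upstream and 90 downstream CRMs of all genes. The peaks come from whole 20 h hatching blastula embryos of the purple sea urchin, Strongylocentrotus purpuratus, cultured at 15 degrees Celsius with no treatment contrast, and mix all embryonic territories. RNA polymerase II was immunoprecipitated from 3 chromatin extracts with the antibody 8WG16, which recognises the repeated heptapeptide at the C-terminal end of its large subunit, and each extract gave a matching input sample. The authors combined the 3 ChIP samples and the 3 inputs before peak calling, and the file used here is their 1 list of peak positions, which holds no score, signal or read count; signal profiles were not used here. Hence each value below describes 1 pooled library. The list gives neither the spread between replicates nor the depth behind a peak, no test between regions was made, and peak strength does not enter any value.

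Nuclear receptors are transcription factors that carry a zinc finger DNA-binding domain and a ligand-binding domain, and many of them change their set of cofactors when a small lipid-like molecule binds. Ecr is named after the insect ecdysone receptor, which pairs with Ultraspiracle and triggers moulting. RefSeq lists the sea urchin gene as Ecr/Fxr, and FXR is the bile acid receptor of vertebrates. Shr2 is a sea urchin orphan receptor, one with no known ligand, related to the testicular orphan receptors of vertebrates, and its transcript is stored in the egg. As background, Pol II ChIP marks initiating and paused polymerase at promoters and enhancers and elongating polymerase along gene bodies, and 8WG16 recovers preferentially the less phosphorylated forms.

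The landscapes of the 2 genes differed in extent more than in peak number per length. At Shr2, peaks covered 61.8% of a window of 38083 bp (23520 bases under peaks). At Ecr, they covered 13.9% of a window of 9329 bp (1298 bases). The share at Shr2 was 4.44 times that at Ecr, while the number of peaks per kb was 1.13 against 0.643. Over the entire list, 20.7% of the sequence was under a peak (each scaffold counted to its last peak), with 0.614 peaks per kb. The Ecr window runs past the last peak of its scaffold, and ended there, as the list value was computed, it was covered over 19.2% with 0.886 peaks per kb. The coverage ratio stayed between 3.22 and 7.88 in the alternatives run.

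**Figure D1:**
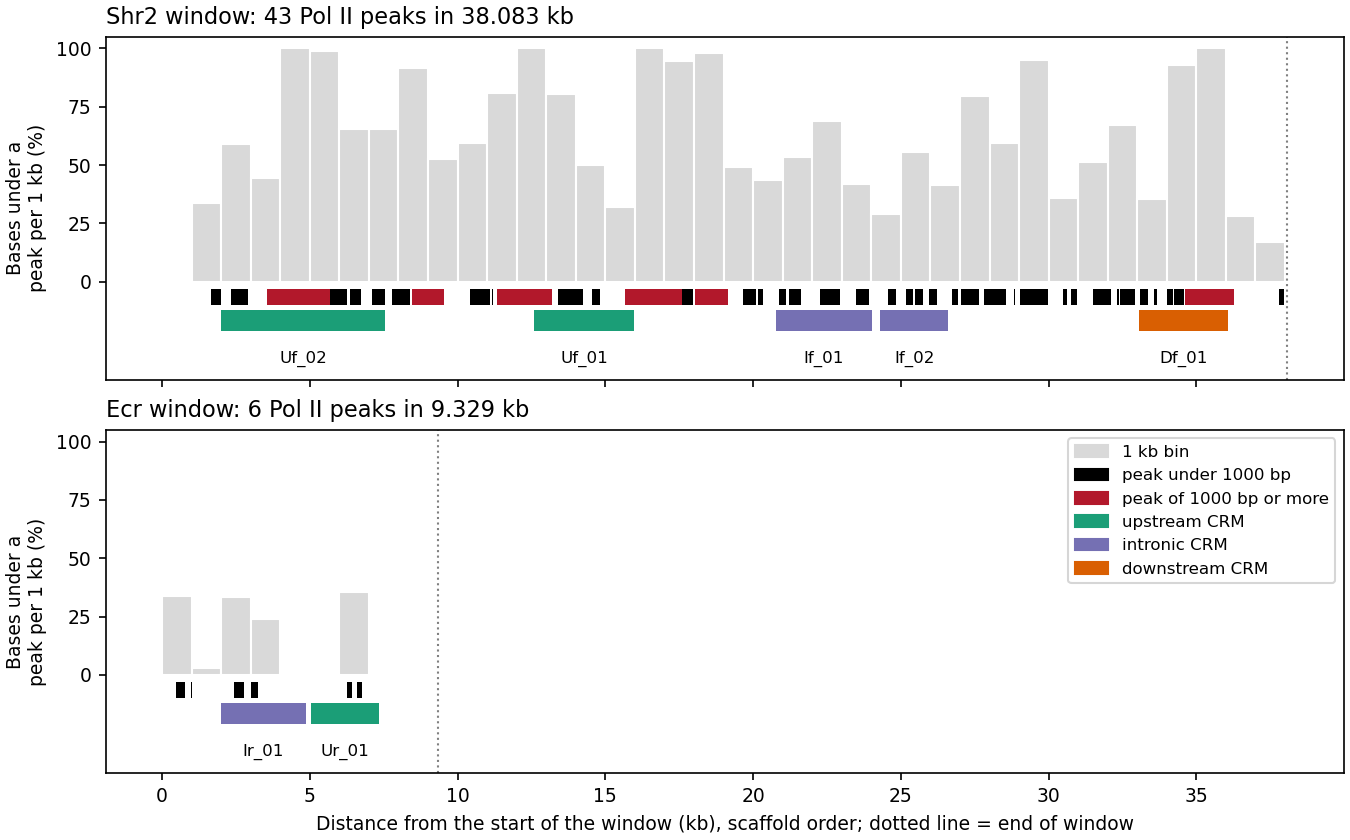
Pol II peaks at the Shr2 (top) and Ecr (bottom) windows, drawn on the same scale in kb from the start of each window. Grey bars give the percent of bases under a peak in each 1 kb bin, black and red blocks the peaks under and of at least 1000 bp, and coloured blocks the CRMs; at Shr2 the 6 red peaks leave the intronic CRMs free, and at Ecr there is none.

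The letters in CRM names were read as upstream (U), intron (I) and downstream (D) of the gene. At Shr2, the order along Scaffold2330 is upstream, intronic, downstream. At Ecr, the intronic CRM comes before the upstream CRM on Scaffold6204, so that the gene reads toward lower positions. Positions are those of genome version 3.1 and count from 1. The start sites and exons of both genes were not placed in this version, so that whether a peak covers a promoter was not analysed here.

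The 6 peaks of the Ecr window were between 64 and 326 bp long. Within the intronic CRM Ecr_Ir_01 (Scaffold6204, 26788 to 29647), 1 peak ran from 27230 to 27555 (326 bp) and the other from 27782 to 28028 (247 bp). Within the upstream CRM Ecr_Ur_01 (29814 to 32116), the peaks ran from 31044 to 31220 (177 bp) and from 31382 to 31560 (179 bp). The remaining pair lay in the flank beyond the intronic CRM, from 25261 to 25565 (305 bp) and from 25753 to 25816 (64 bp, the shortest). The peaks thus came in 3 close pairs, with 187, 226 and 161 bp inside the pairs and 1413 and 3015 bp between them.

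The stretch without a peak from 28029 to 31043 is the longest of the Ecr window. It took in the end of the intronic CRM, the 166 bp between the CRMs and the beginning of the upstream CRM. The longest Ecr peak, of 326 bp, was longer than 70.1% of all listed peaks, and the Ecr median of 213 bp was close to the 217 bp of the whole list. Among the windows of all 37 genes, however, the Ecr median ranked 36, and the middle window had a median of 323 bp. None of the 6 peaks crossed the edge of a CRM.

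The list shows no peak on Scaffold6204 beyond 31560, which is 556 bp before the end of Ecr_Ur_01. The length of the scaffold is not in the list, so the last 2556 bp of the window may hold sequence without peaks, assembly gaps or no sequence at all. Ended at the last peak, the window was covered over 19.2% of 6773 bp. The rest of the scaffold was also sparse. Its 11 other peaks covered 9.80% of 24787 bp. Stretches of 8133 bp (10238 to 18370) and 6740 bp (18521 to 25260) had none, the second reaching into the window, which starts at 24788. Assembly gaps in these stretches were not tested.

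At Shr2, 43 peaks were listed, with a median length of 381 bp and quartiles of 210.5 and 651 bp. The mean was 547 ± 511 bp (SD over peaks, which are not replicates). The median Shr2 peak was longer than 76.0% of all listed peaks. Among the windows of all 37 genes, the Shr2 median ranked 12, within the quartiles over windows of 262 and 406 bp. The Shr2 peaks reached from 37 bp (32851 to 32887) to 2110 bp. Of the 43, 7 were under 150 bp, against 30.1% of the whole list.

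**Figure D2:**
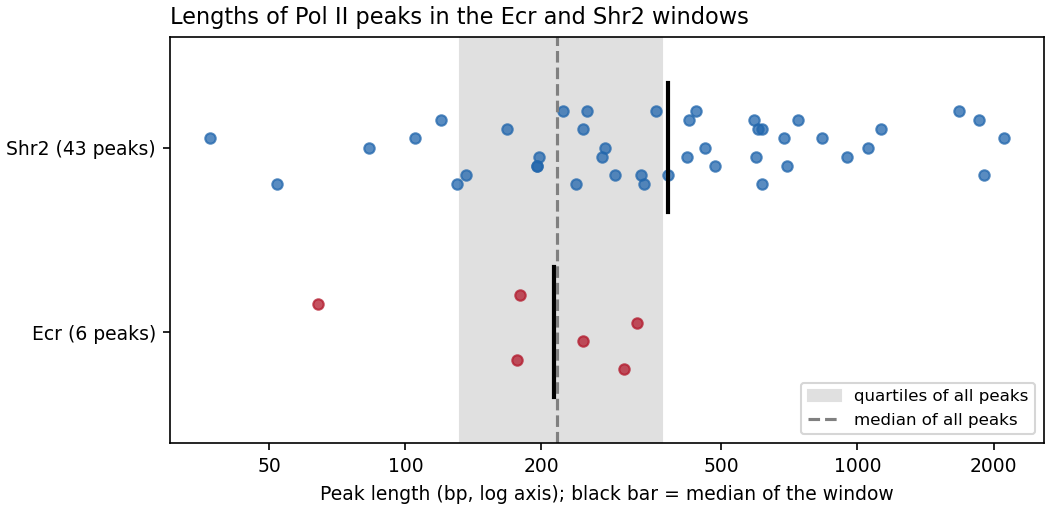
Length in bp (log axis) of each Pol II peak in the Ecr and Shr2 windows, 1 point per peak, with the window median as a black bar; the grey band and dashed line are the quartiles (132 and 370 bp) and median (217 bp) of the 554846 listed peaks. The 6 Ecr peaks lie at or under 326 bp, and 6 Shr2 peaks exceed 1000 bp.

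Of the 43 Shr2 peaks, 6 (14.0%) were at least 1000 bp long, against 4.71% of the whole list, and 0 of the 6 Ecr peaks were. Together this is 12.2% of the 49. Over the windows of all 37 genes, the median of this share was 13.2%, with quartiles of 7.41% and 22.2%. The Shr2 share was thus near the middle of the gene windows. The 6 long Shr2 peaks held 41.4% of the covered bases of the Shr2 window. Their places were uneven. The longest (7567 to 9676, 2110 bp) lay inside the far upstream CRM Shr2_Uf_02. The next toward the gene (12483 to 13538, 1056 bp) touched no CRM.

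The third long peak (15355 to 17211, 1857 bp) entered the near upstream CRM Shr2_Uf_01 from the far side, with 617 of its bases inside. The fourth (19693 to 21597, 1905 bp) left that CRM on the gene side, with 301 bases inside. The fifth (22032 to 23158, 1127 bp) lay between the upstream and the intronic CRMs. These 5 peaks fell within 15592 bp, all before the first intronic CRM. The sixth (38611 to 40290, 1680 bp) came only after 15452 bp with 25 shorter peaks, the longest of them 950 bp, and covered much of the downstream CRM Shr2_Df_01.

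Between the beginning of Shr2_Uf_02 and the first intronic CRM, 18761 bp held 17 peaks with a median length of 595 bp and were covered over 72.1%. From the first to the last intronic CRM, 5835 bp held 8 peaks with a median of 284 bp and were covered over 48.6%. The following 6471 bp up to the downstream CRM held 10 peaks with a median of 354 bp and were covered over 63.0%. Peaks were therefore more numerous per kb along the intronic CRMs (1.37) and behind them (1.55) than before them (0.906), and their median was shorter. Where the gene begins within the stretch before the intronic CRMs was not placed.

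The covered share fell in both flanks of the window, which were not set against the flanks of other genes. Outside the window, the scaffold was covered over 36.3% up to its last peak. The flank before the first upstream CRM was covered over 16.9% by 1 peak (5656 to 5992, 337 bp). The flank after the downstream CRM was covered over 18.3%, by the end of the long downstream peak and by 1 short peak (41810 to 41977, 168 bp). The longest stretch without a peak in the window was the outermost 1645 bp on the upstream side (4011 to 5655). Of 39 bins of 1 kb at Shr2, 25 were covered over at least 50% of their bases and 2 had no peak. Of 10 bins at Ecr, 0 were covered over 50% and 5 had no peak, 3 of which begin past the last peak of the scaffold. The last bin is shorter than 1 kb, with 329 bp at Ecr and 83 bp at Shr2, and both of these had no peak.

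Every one of the 7 CRMs overlapped a peak, as did 98.5% of the CRMs of all genes, so presence of Pol II does not set these genes apart. The covered share did vary, and 4 of the 7 were covered over at least 50% of their length, against 67.9% of the CRMs of all genes. The 4 were all of Shr2. The far upstream Shr2_Uf_02 (6011 to 11562) was covered over 74.1% by 5 peaks. Its 4116 covered bases ranked 3 among the CRMs of all genes, while its share ranked 182, since this CRM is 5552 bp long.

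The near upstream Shr2_Uf_01 (16595 to 19993) was covered over 59.5% by 4 peaks, with 851 bp free of peaks before the long peak at its gene side. The intronic Shr2_If_01 (24772 to 28024) was covered over 54.4% by 4 peaks, the longest of 687 bp. The intronic Shr2_If_02 (28317 to 30606) was covered over 46.6%, also by 4 peaks, and none exceeded 291 bp. The downstream Shr2_Df_01 (37078 to 40093) had the highest share of the 7, with 78.5% under 6 peaks. Ecr_Ir_01 and Ecr_Ur_01 had 2 peaks each and were covered over 20.0% and 15.5%, ranks 362 and 370 from the highest among the CRMs of all genes.

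**Figure D3:**
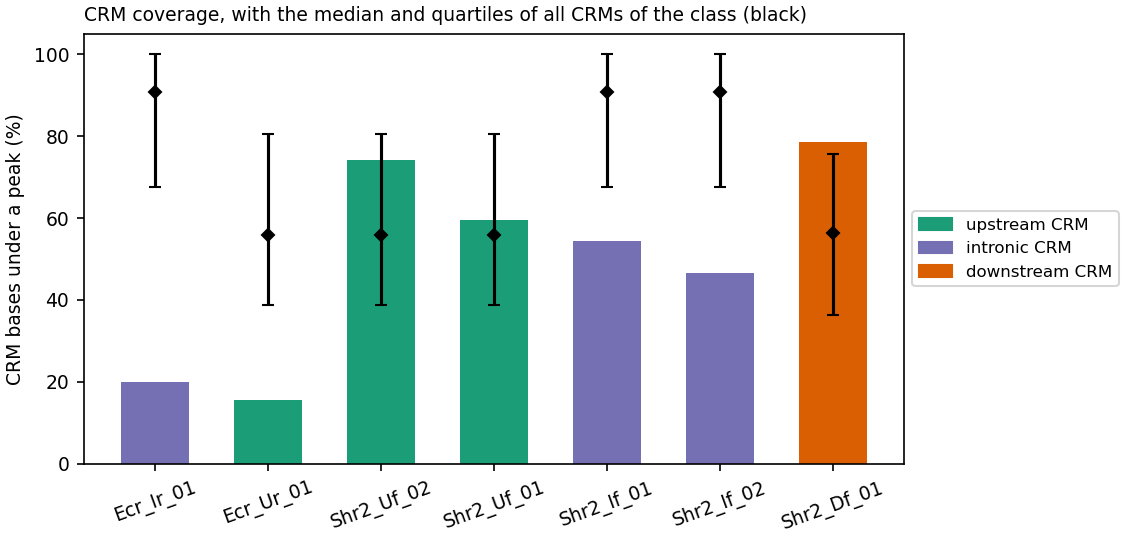
Percent of bases under a Pol II peak in the 2 Ecr and 5 Shr2 CRMs (bars, coloured by position class), with the median (diamond) and quartiles (whiskers) over all CRMs of the same class. The intronic CRMs of both genes lie below the lower quartile of their class (67.7%), and the upstream Ecr_Ur_01 lies below that of its class (38.7%). Shr2_Df_01 lies above the upper quartile of its class (75.6%).

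The order of the classes at Shr2 differed from that over all genes. Over all 166 intronic CRMs the median share was 90.7%, against 55.8% over 133 upstream and 56.4% over 90 downstream CRMs. Shr2_If_01 ranked 139 and Shr2_If_02 ranked 150 among the 166. By contrast, Shr2_Uf_02 ranked 41 and Shr2_Uf_01 ranked 63 of 133 upstream CRMs, and Shr2_Df_01 ranked 21 of 90 downstream CRMs. Summed over CRMs, Shr2 intronic CRMs were covered over 51.2% and Shr2 upstream CRMs over 68.6%.

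This difference of -17.4 percentage points (intronic minus upstream) was the lowest of the 32 genes that have CRMs of both classes. It rests on 2 CRMs of each class, and other genes came close, with -15.4 points at Hnf1, -13.8 at Dri and -13.6 at Prox. Among the 32 genes, 26 had a higher share in introns and 6 a lower one, with a median difference of 21.4 points. The gap at Shr2 widened to -37.9 points with peaks of at least 300 bp, where the intronic share dropped to 27.6% and the upstream share was 65.6%. With gaps of 200 bp or less joined, Shr2 was the second lowest of the 32. At Ecr the difference was 4.58 points, from 20.0% and 15.5%, and it changed sign to -2.41 points with gaps of 200 bp or less joined, as the 161 bp between the upstream peaks then counts as covered. The values at Ecr rest on 1 CRM of each class.

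The covered share at Shr2 was slightly lower inside the CRMs than between them. The 5 Shr2 CRMs were covered over 64.8% of 17510 bp, and the 4 intervals between them over 69.2% of 16573 bp. Of the 43 peaks, flanks included, 23 touched a CRM and 20 touched none, and 3 crossed a CRM edge. The CRMs make up 17510 of the 38083 bp of the window, and these counts were not set against other gene windows. The gap between the upstream and intronic CRMs (19994 to 24771) was covered over 78.4%, close to the share of Shr2_Df_01. The 292 bp between the intronic CRMs held no peak. Of 42 gaps between neighbouring Shr2 peaks, 13 (31.0%) were 100 bp or less, against 11.3% over the list, and the smallest was 13 bp. The long peak in Shr2_Uf_02 and the 595 bp peak after it (9690 to 10284) are separated by that gap. With gaps of 100 bp or less joined, the window held 30 peaks, so that the count depends on how near peaks are joined. Whether signal continues across such gaps was not tested.

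Among the 37 gene windows built in the same manner, Shr2 ranked 16 by covered share and 5 by peaks per kb. Its neighbours by covered share were Bmp24 (62.1%) and Sip1 (58.9%). Despite its share, the longest Shr2 peak ranked only 31 of 37, and the median over windows of the longest peak was 5330 bp. Shr2 thus reached a middle share with many peaks of moderate length. Atbf1, with 62.8% and a longest peak of 1385 bp, did so too. The highest share, 85.5% at Chordin, came with a longest peak of 10759 bp.

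Ecr ranked last by covered share, next to Hnf1 with 17.5%, and last by longest peak. It also has the shortest window of the 37. With the window ended at the last peak of its scaffold, Ecr was above Hnf1 and ranked 36. In peak number it was not alone. Z13 had 5 peaks in 12900 bp, covered over 37.2% with a longest peak of 3278 bp. FoxJ1 also had 6 peaks and Myc had 4, and peaks covered 79.9% and 67.4% of their windows, with longest peaks of 13002 and 10128 bp. These genes, and Atbf1, were picked for the comparison after their values had been seen. The list gives position only, so that little Pol II and Pol II under the calling threshold cannot be told apart at Ecr.

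**Figure D4:**
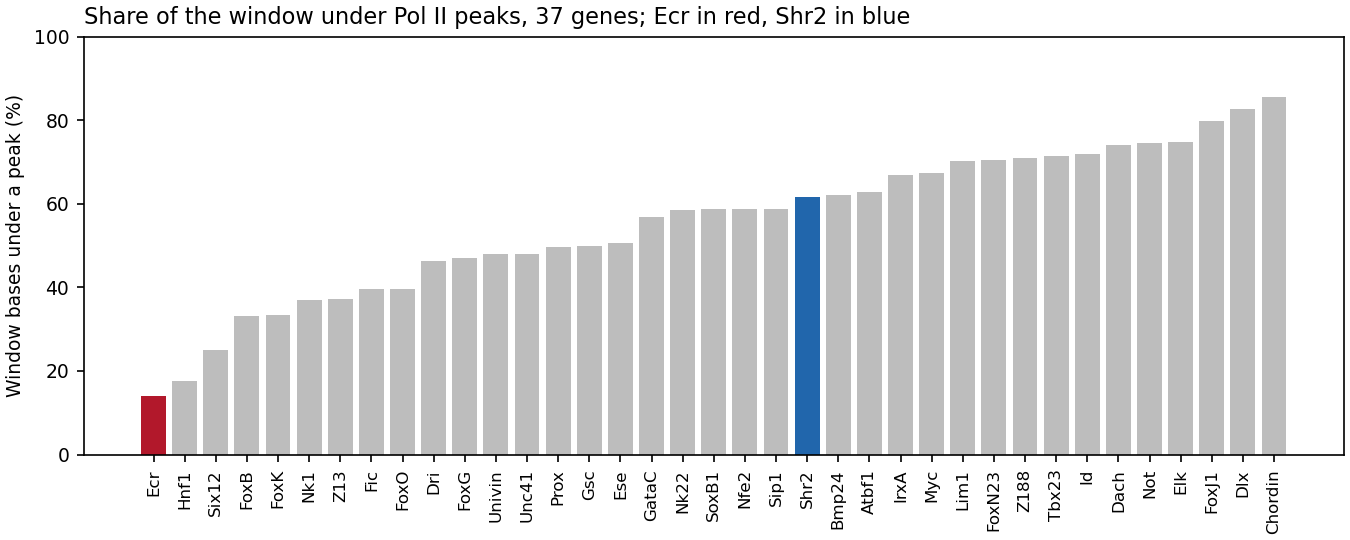
Percent of bases under a Pol II peak in the windows of the 37 genes, sorted from lowest to highest, with Ecr in red (13.9%) and Shr2 in blue (61.8%). Bars start at 0; the window median is 58.8%.

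The windows also differed from the scaffolds around them. Outside its window, Scaffold2330 carried 269 peaks over 36.3% of its bases up to the last peak, the third highest value among the 37 genes. The Shr2 window was above it, as were the windows of 35 of the 37 genes over their own scaffolds, Ecr included.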

How the data were processed

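The authors combined 3 Pol II ChIP and 3 input samples, aligned reads to genome version 3.1 and called peaks against the inputs by MACS 1.4.2 with its defaults. The methods name Bowtie 2 as the aligner, and the submitters' processing notes list Bowtie 1.0.1. The deposited list gives peak positions in bp (scaffold, start, end) and no other measurement. Starts were read as counting from 0, since 85 peaks start at 0, although the plan had this as the alternative, and both readings were computed. CRM positions came from the study's table of tested regions, read in the same way; its reporter and signal values were not used here. The genes and CRMs, and the lists and alternatives, were chosen with earlier results of these data known. Named were all 7 CRMs, peaks of at least 1000 bp, the 3 longest and the shortest peak and the longest free stretch of each window, and neighbours in rank; other peaks are given for position. Bases under peaks were counted with Python 3.11.15 and numpy 2.4.6, and the code was tested on simulated data. Figures were drawn with matplotlib 3.10.9.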

Additional observations from a re-analysis of the deposited data

How the results depend on the processing

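No paired analysis was possible because replicates were combined before peaks were called; leaving one out was not possible either. With no replicates, a share was taken as moved when it left its 95% Wilson interval over bases (scipy 1.17.1), which are not independent; this bar is strict. Of 54 alternatives for windows and classes, 34 were counted as unmoved, by this interval or, for numbers, within 1.5 times. Differences between intronic and upstream shares were judged by another bar, the root of the summed squares of both shares' interval margins. A change of sign was counted as reversed. The 34 include ranks, which the interval does not judge, among them the Ecr rank that went from 37 to 36. They also include the Shr2 share with the window ended at the last peak, where 0 bp were removed. With peaks of at least 300 bp, Ecr kept 2 peaks over 6.76% and Shr2 25 peaks over 53.3% with a median of 614 bp, by construction. At 150 bp the Shr2 share was 60.0%. Joining gaps of 100 bp or less gave Shr2 63.4% and a median of 598.5 bp, and of 200 bp or less 22 peaks over 66.7%, and Ecr 17.6%. Without flanks the shares were 17.4% at Ecr and 66.9% at Shr2, and with 5000 bp flanks 8.47% and 57.3%. Added after seeing the data, ending the window at the last peak gave Ecr 19.2%. Also added then, intronic minus upstream shares at Shr2 were -15.6 points with gaps of 100 bp or less joined and -37.9 points at 300 bp, and at Ecr 11.4 points at 300 bp and -2.41 points, a reversal, with gaps of 200 bp or less joined. Shr2 had the higher covered share in each alternative. Of 21 alternatives for single CRMs, 10 stayed within the interval; at 300 bp, Shr2_If_02 and Ecr_Ur_01 had no bases under a peak.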
